A study of Mus musculus with 33 samples.

Results

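The regions described here lie around the genes of 4 cardiac transcription factors that were not themselves delivered to the cells, Hand2, Nkx2-5, Tbx20 and Gata6. Members were all regions of the deposited table that start inside a fixed window on the mouse build mm9, 400 kb on chromosome 8 for Hand2, 200 kb on chromosome 17 for Nkx2-5, 260 kb on chromosome 9 for Tbx20 and 240 kb on chromosome 18 for Gata6. This gave 24 of 30815 regions, with 6 at Hand2, 8 at Nkx2-5, 2 at Tbx20 and 8 at Gata6. The windows were set by position alone, with no read count. Regions are called sites below and are numbered along each window.

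Binding of Gata4, Mef2c and Tbx5 was measured by ChIP-seq, in which antibody-enriched chromatin fragments are sequenced, in a cardiac fibroblast line from newborn Cd-1 mice. The line carries the alpha-MHC-GFP reporter, in which the promoter of a cardiomyocyte myosin heavy chain gene drives green fluorescent protein, and it was immortalized with a large T antigen that Cre can remove. All groups therefore share T antigen, both small molecules (sb431542, a TGF-beta inhibitor, and xav939, a Wnt inhibitor) and harvest without sorting at day 2 after the start of reprogramming. Cells received retroviruses for Gata4, Mef2c and Tbx5 together (written "with the others") or for a single factor (written "alone"), and input chromatin was sequenced from each kind of cell. Gata4 and Tbx5 were precipitated with goat polyclonal antibodies and Mef2c with a rabbit monoclonal, so levels of different factors also differ in the antibody. Because cells were not sorted, occupancy is an average over infected and uninfected cells, and fewer cells with a bound site cannot be told apart from weaker binding in each.

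Hand2 is a basic helix-loop-helix factor needed for growth of the right ventricle, Nkx2-5 is a homeobox factor found throughout the early myocardium, Tbx20 is a T-box factor of myocardium and endocardium, and Gata6 is a zinc-finger relative of Gata4. In the developing heart these genes and those of Gata4, Mef2c and Tbx5 form a network in which the proteins bind enhancers of each other's genes. Gata4 recognises GATA sequences, Mef2c binds A/T-rich MEF2 sites and Tbx5 binds T-box sites, and Gata4 and Tbx5 are known to contact each other and Nkx2-5 on cardiac enhancers. Hand2 is itself used in some reprogramming mixtures beside the 3 factors delivered here.

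Sequences of the sites could not be printed, because no mm9 genome was used here. The promoters of the 2 genes whose windows held the sites with the highest Mef2c and Tbx5 signal over input are shown instead, from RefSeq on GRCm38.p6, as the 250 bases before the start of each gene, read 5′ to 3′ on the gene's strand. Hand2 lies on the plus strand (chr8:57320733-57320982) and Nkx2-5 on the minus strand (chr17:26841566-26841815). Capitals mark matches on either strand to the GATA letters GATAA. The T-box letters AGGTGT and the MEF2 letters (CTA, any 4 bases, TAG) were searched in the same way and had no match in either promoter.
Hand2: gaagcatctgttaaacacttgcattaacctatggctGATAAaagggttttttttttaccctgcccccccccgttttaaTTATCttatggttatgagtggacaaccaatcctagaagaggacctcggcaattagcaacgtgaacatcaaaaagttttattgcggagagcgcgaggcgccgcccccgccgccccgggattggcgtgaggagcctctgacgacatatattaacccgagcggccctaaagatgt
Nkx2-5: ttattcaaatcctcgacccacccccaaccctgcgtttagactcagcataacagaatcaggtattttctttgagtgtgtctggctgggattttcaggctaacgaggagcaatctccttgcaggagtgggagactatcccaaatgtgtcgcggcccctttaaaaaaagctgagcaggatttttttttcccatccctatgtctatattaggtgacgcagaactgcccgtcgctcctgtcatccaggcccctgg
The Hand2 promoter held 2 GATAA matches and the Nkx2-5 promoter 0. Of 32851 RefSeq promoters of this length, 22.6% held at least 1 GATAA, 11.8% the T-box letters and 3.2% the MEF2 letters. These are letter matches only. The 2 builds have different coordinates, so whether any site overlaps these promoters, an exon or an intron is not given here.

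The table held 33 libraries with 97474 to 2377616 reads in regions. Libraries that agree within sampling noise were summed, which left 29 samples, of which 5 were Gata4 with the others, 4 Gata4 alone, 4 Mef2c with the others and 3 alone, 4 Tbx5 with the others and 3 alone, and 6 input. Input samples 1 and 2 of the cells with all factors, called input samples 1 and 2 below, are sums of 2 and 3 libraries. Levels are CPM, the usual abbreviation for a count scaled to a common total, here the reads of the sample in all regions. Fold changes come from edgeR's quasi-likelihood test with TMM scaling across all regions passing its filter on low counts, and a site was called at a Benjamini-Hochberg adjusted p under 0.05 over all regions tested. A site too low in 1 group could enter a comparison only through the other group, so the filter partly sets the direction of its change. The library labelled Gata4 alone number 4 lay closer to the mean of the inputs than to the other Gata4 alone samples at 19 of 24 sites (79.1% of all regions did so), and values without it are given for the Gata4 sites described in detail. TMM factors were 1.06 to 1.48 in inputs and 0.489 to 1.08 in the ChIP samples compared with them, so a log2 fold change against input can differ in sign from the plain CPM. Scaling by library totals shifted the median log2 fold change over all regions against input by -0.27 to -1.48, and the shift was largest for Mef2c alone. Libraries of a group are named as biological replicates in the labels, and p-values refer to the spread between them. Cells with all factors and cells with a single factor were separate libraries, some of which differed in reads on chromosome Y. In inputs of cells with all factors these were 37.5 to 43.1 CPM in libraries 1, 3 and 6 and 0 to 10.3 CPM in libraries 2, 4 and 5. Inputs of single-factor cells had 30.8 to 71.9 CPM. Mef2c had 5.31 to 8.71 CPM alone and Tbx5 11.9 to 18.8 CPM. With the others, both had 11.7 CPM in library 3, and libraries 2, 4 and 5 had 0 to 1.74 CPM for Mef2c and 0 to 1.72 CPM for Tbx5. The added factors and a difference between cell populations therefore cannot be told apart.

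The Nkx2-5 window was the densest for its length. Of the 200-kb windows that tile the genome, 6.03% held at least 8 regions, whereas 9.54% of 240-kb windows held as many as Gata6, 35.3% of 400-kb windows as many as Hand2 and 55.2% of 260-kb windows as many as Tbx20. Sites were 201 to 561 bases long with a median of 274, against a median of 234 over all regions. At Hand2, sites 3 to 6 sat together between 59947494 and 59967670, and sites 5 (59966585 to 59966788) and 6 (59967378 to 59967670) were 589 bases apart. At Nkx2-5, sites 2 to 5 sat between 26998395 and 27006147. The Gata6 sites included neighbours 1295 bases apart (sites 4 and 5) and 1570 bases apart (sites 6 and 7), and the Tbx20 pair was 8172 bases apart.

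**Figure D1:**
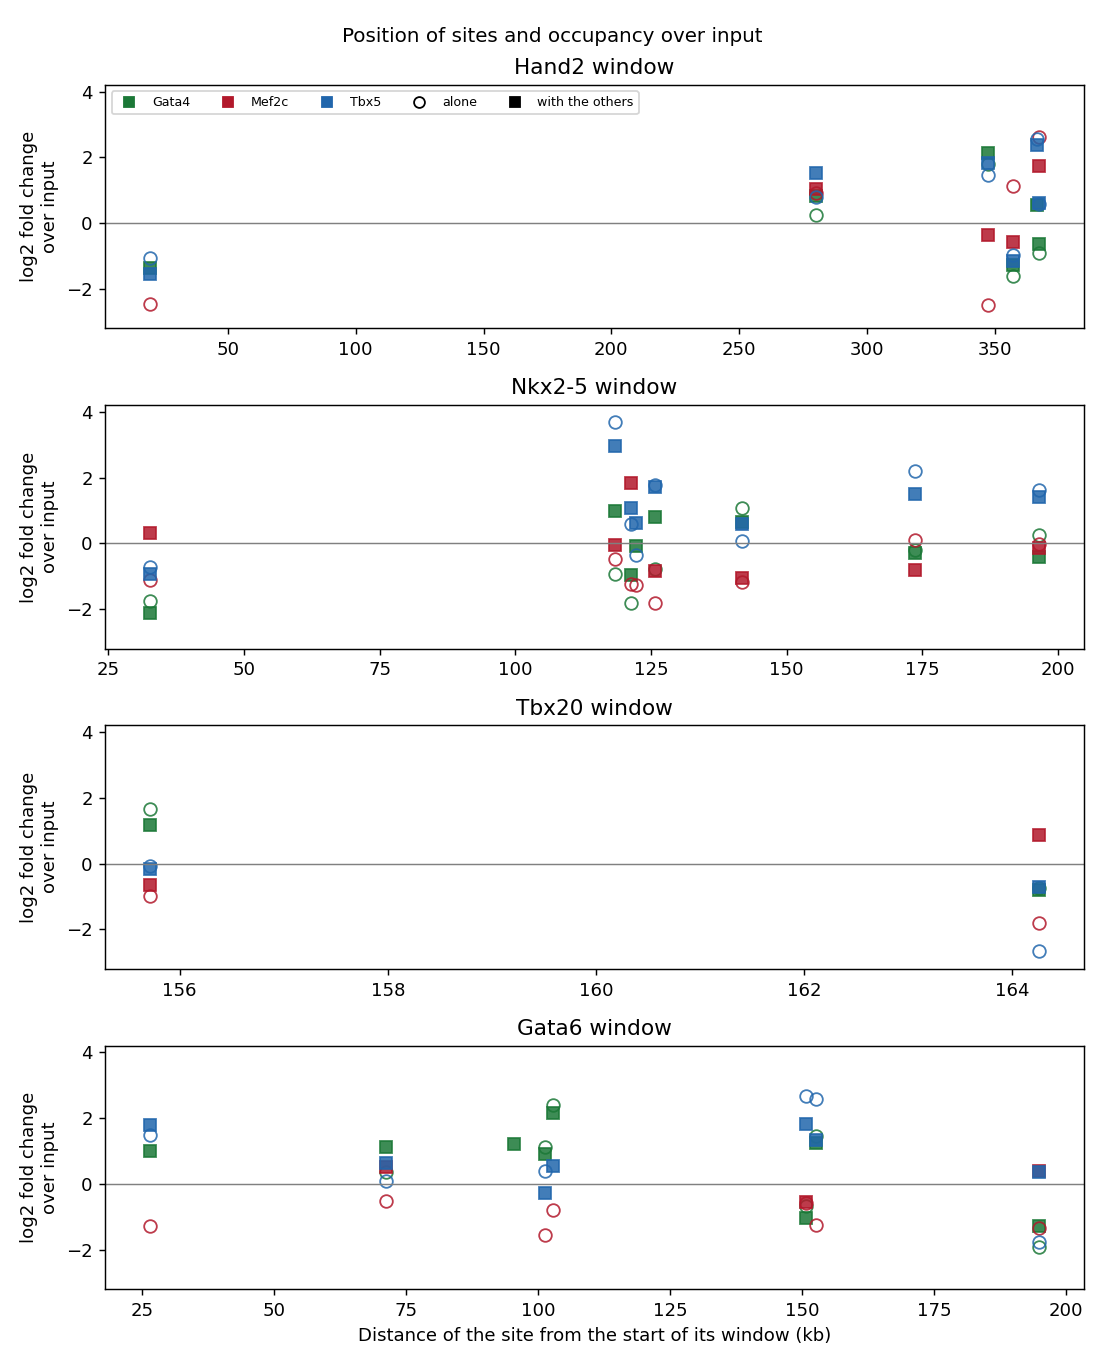
Log2 fold change over input (vertical axis) of each tested site against its distance in kb from the start of its window (horizontal axis, scaled separately in each panel), with open circles for a factor alone and filled squares for the factor with the others. Neighbouring sites differ in which factor lies above input, as at Hand2 sites 5 and 6 near 367 kb, where the largest values are those of Tbx5 and of Mef2c.

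The first question was which factor occupied each locus above input. Gata4 alone was higher than input at 6 sites and lower at 4 of 19 tested, where 36.5% of all regions were called, 23.7% higher and 12.8% lower. With the others it was higher at 12 and lower at 6 of 24, with 57.9% of all regions called, 29.8% higher and 28.2% lower. Mef2c alone was higher at 3 and lower at 13 of 22 sites, with 73.3% of all regions called, 33.6% higher and 39.7% lower. With the others, Mef2c was higher at 4 and lower at 3 of 16, against 73.7% called, 38.2% higher and 35.5% lower. Tbx5 alone was higher at 10 and lower at 4 of 22, against 68.2% called, 33.4% higher and 34.8% lower. With the others, Tbx5 was higher at 11 and lower at 3 of 23, against 72.4% called, 35.4% higher and 37% lower. The median log2 fold change of the tested sites was 0.61 for Gata4 with the others against 0.07 over all regions, 0.59 for Tbx5 alone against -0.31, 0.63 for Tbx5 with the others against -0.08, and -1.14 for Mef2c alone against -0.43. It was -0.19 for Gata4 alone against -0.05 over all regions, and -0.09 for Mef2c with the others against -0.11. All 6 comparisons share the same inputs. With library totals in place of TMM, the higher and lower counts became 4 and 6 for Gata4 alone, 8 and 8 for Gata4 with the others, 1 and 19 for Mef2c alone, 2 and 9 for Mef2c with the others, and 10 and 6 for Tbx5 with the others. Without Gata4 alone number 4, Gata4 alone was called at 14 sites in place of 10, and Tbx20 site 2 was then called lower (-1.60, adjusted p = 0.00433).

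Calls for the factors alone depended on which inputs were used. Against only the 3 inputs of single-factor cells, which hold 97474 to 127871 reads each, Tbx5 alone was still called higher at Nkx2-5 site 2 (2.01, adjusted p = 6.56e-05) and Hand2 site 5 (2.75, adjusted p = 0.00434), and Mef2c alone at Hand2 site 6 (2.35, adjusted p = 1.76e-05). The calls for Tbx5 alone ended at Gata6 site 6 (0.77, adjusted p = 0.101), Gata6 site 7 (0.97, adjusted p = 0.121), Hand2 site 3 (0.85, adjusted p = 0.233) and Nkx2-5 site 7 (0.79, adjusted p = 0.125), and the direction turned at Nkx2-5 site 5 (-0.07, adjusted p = 0.902) and site 8 (-0.56, adjusted p = 0.371). At Nkx2-5 site 3, where Tbx5 alone was not called against all inputs (0.59, adjusted p = 0.112), it was now called lower (-1.46, adjusted p = 0.0209). The calls for Mef2c alone ended at Hand2 site 2 (0.07, adjusted p = 0.904) and site 4 (0.75, adjusted p = 0.0967). No Gata4 call was kept, with 2.00 at Hand2 site 3, 1.51 at Tbx20 site 1, 1.85 at Gata6 site 5 and 0.16 at Nkx2-5 site 6 (adjusted p from 0.133 to 0.851), where only 9 sites were tested. At an unadjusted p under 0.05, 3 of these 9 were higher and 1 lower, and DESeq2 called 0.

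**Figure D2:**
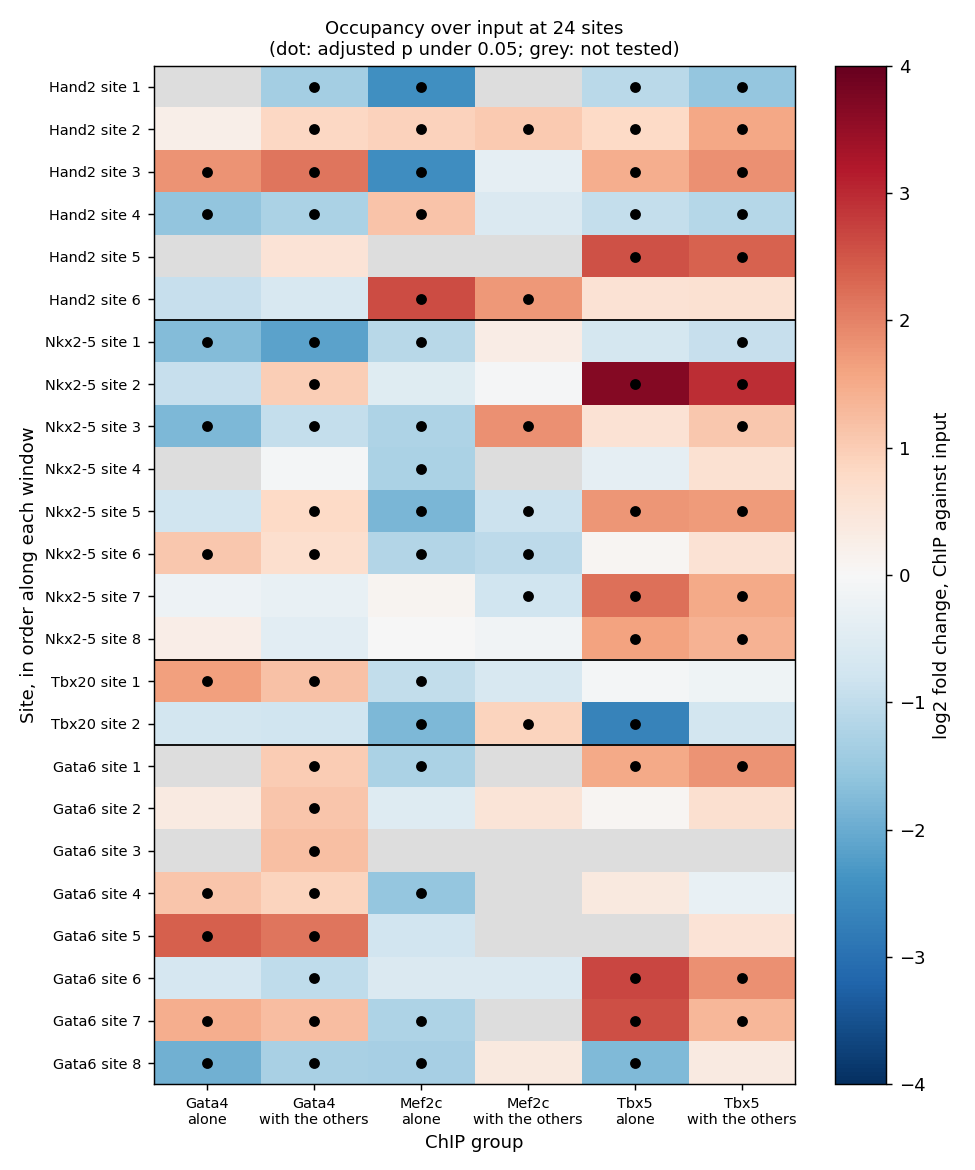
Heat map of the log2 fold change over input at the 24 sites (rows, in order along each window) for the 6 ChIP groups (columns), red for higher and blue for lower, with a dot at an adjusted p under 0.05 and grey where a site was not tested. The darkest red cell is Nkx2-5 site 2 for Tbx5 alone (3.68), and Mef2c alone is red with a dot only at Hand2 sites 2, 4 and 6, of which 2 and 4 turn negative with library totals.

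At Hand2, each factor had its highest log2 fold change over input at a different site. In plain CPM, Tbx5 with the others was higher at site 3 (96.0) than at site 5 (69.8). Gata4 was strongest at site 3 (chromosome 8, 59947494 to 59947739), with 175, 133, 156, 168 and 165 CPM with the others and 143, 135, 121 and 44.9 CPM alone. The inputs ranged from 15.6 to 60.4 CPM (median 33.1). Every Gata4 sample with the others lay above every input, while the library labelled Gata4 alone number 4 lay inside the input range. The log2 fold change was 2.13 ± 0.25 (SE) with the others (adjusted p = 9.86e-10) and 1.78 ± 0.40 alone (adjusted p = 0.00134). Without that library the value alone was 2.22, and without input sample 1 or 2 of the cells with all factors it was 1.18 or 1.14, still past the threshold. Tbx5 was also higher than input at this site, at 77.0 ± 12.8 CPM alone (SD, n = 3) and 96.0 ± 15.0 with the others (n = 4), with log2 fold changes of 1.45 ± 0.28 (adjusted p = 5.76e-06) and 1.84 ± 0.27 (adjusted p = 7.6e-08). The call for Tbx5 alone ended without input sample 1 or 2 (lowest log2 fold change 0.59, highest adjusted p = 0.0968).

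At the neighbouring Hand2 sites 5 and 6, the largest log2 fold changes over input were those of Tbx5 and of Mef2c. At site 5, Tbx5 measured 76.2, 77.7 and 98.9 CPM alone and 60.3, 62.5, 79.4 and 76.8 with the others, whereas inputs ran from 0 to 32.2 CPM (median 11.2). All Tbx5 samples were above all inputs, and the log2 fold changes were 2.55 ± 0.31 alone (adjusted p = 2.12e-11) and 2.37 ± 0.33 with the others (adjusted p = 2.98e-08). Mef2c had 10.3 ± 3.32 CPM there alone and 20.1 ± 7.81 with the others and was removed by the filter on low counts, but with the others it was called above input without the filter (0.89, adjusted p = 0.047) and in 1 fit of all groups (1.11, adjusted p = 0.0162). At site 6, in contrast, Mef2c measured 83.9, 70.2 and 61.6 CPM alone and 60.0, 66.3, 68.6 and 71.5 with the others, with inputs from 15.6 to 36.5 CPM (median 31.1). Mef2c samples again did not overlap the inputs, with log2 fold changes of 2.62 ± 0.26 alone (adjusted p = 2.28e-17) and 1.75 ± 0.30 with the others (adjusted p = 7.87e-06), or 1.13 and 0.96 with library totals. Tbx5 at site 6 was 33.4 ± 5.83 CPM alone and 33.2 ± 9.18 with the others and was not called (0.59, adjusted p = 0.128, and 0.61, adjusted p = 0.0808), except with the others without the filter (0.73, adjusted p = 0.0402).

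The other Hand2 sites were called both above and below input. Site 2 (59880028 to 59880323) was called higher for Gata4 with the others (0.82 ± 0.27, adjusted p = 0.00985), Mef2c alone (0.91 ± 0.31, adjusted p = 0.00729), Mef2c with the others (1.04 ± 0.32, adjusted p = 0.00455), Tbx5 alone (0.80 ± 0.33, adjusted p = 0.0278) and Tbx5 with the others (1.53 ± 0.27, adjusted p = 5.04e-06). Of these 5 calls, only the last was kept with library totals and with each sample left out in turn. With library totals Mef2c alone had a log2 fold change of -0.58 there (23.8 ± 6.09 CPM against 36.6 ± 9.89 in inputs). At site 4 the inputs had 60.7 ± 12.8 CPM and Mef2c alone 52.9 ± 18.5, a log2 fold change of 1.13 ± 0.24 with TMM (adjusted p = 3.02e-05) and -0.37 with library totals, and the call ended without input sample 2 (0.36, adjusted p = 0.225). Gata4 was called lower than input there, at -1.59 alone (adjusted p = 0.00255) and -1.27 with the others (adjusted p = 0.000262). Tbx5 was also called lower, at -0.97 alone (adjusted p = 0.00787) and -1.14 with the others (adjusted p = 0.00198). The call for Tbx5 alone ended without Tbx5 alone sample 2 (adjusted p = 0.0531). Site 1, which lies 260413 bases before site 2, was lower than input for each group in which it was tested, from -1.07 for Tbx5 alone to -2.47 for Mef2c alone.

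The Nkx2-5 locus held the site with the largest Tbx5 signal over input among the members. At site 2 (chromosome 17, 26998395 to 26998819) Tbx5 measured 243, 320 and 252 CPM alone and 138, 162, 194 and 143 CPM with the others, while inputs were between 23.6 and 39.1 CPM (median 31.1). The groups did not overlap, and the log2 fold changes of 3.68 ± 0.23 alone (adjusted p = 2.12e-26) and 2.95 ± 0.25 with the others (adjusted p = 3.29e-14) were above those of 99.8% and 99.6% of all tested regions. Tbx5 was also above input at site 5 (27005741 to 27006147; 1.77 ± 0.25 alone and 1.70 ± 0.25 with the others), site 7 (27053612 to 27054172; 2.19 ± 0.23 and 1.51 ± 0.25) and site 8 (27076531 to 27076866; 1.62 ± 0.32 and 1.40 ± 0.31), with adjusted p of at most 0.000147. At site 8 the call for Tbx5 alone ended without input sample 1 or 2 (lowest log2 fold change 0.50, highest adjusted p = 0.204). Against inputs of single-factor cells only, Tbx5 alone was not called at sites 5, 7 and 8, as given above. With the others Tbx5 was further called at site 3 (1.08 ± 0.31, adjusted p = 0.00187, or 0.48 and not called with library totals, and 0.63, adjusted p = 0.109, without input sample 2).

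Gata4 and Mef2c passed input at fewer Nkx2-5 sites. Gata4 with the others was called at sites 2 (0.98 ± 0.27, adjusted p = 0.00252), 5 (0.81 ± 0.26, adjusted p = 0.00663) and 6 (0.66 ± 0.27, adjusted p = 0.0335). At site 2 the call ended without input sample 1 or 2 (adjusted p = 0.0595 and 0.0759), as it did at site 5 (lowest log2 fold change 0.35, highest adjusted p = 0.318), and at site 6 it was kept with only 3 of 11 samples left out in turn. Gata4 alone was called only at site 6, with 60.0, 64.3, 101 and 40.4 CPM against inputs from 23.5 to 82.1 CPM (median 33.2), so that the groups overlapped (1.07 ± 0.38, adjusted p = 0.0257). Without Gata4 alone number 4 it was 1.47 (adjusted p = 1.14e-05). The call ended without input sample 1, 2 or 6 of the cells with all factors or Gata4 alone sample 1, 2 or 3 (adjusted p from 0.0552 to 0.445). Mef2c with the others was called at site 3 (27001370 to 27001697), with 86.1, 79.7, 98.3 and 99.3 CPM, all above the inputs at 20.5 to 63.9 CPM (median 45.9). Its log2 fold change of 1.84 ± 0.31 (adjusted p = 3.84e-06) was 1.11 or 1.20 without input sample 1 or 2, and 1.08 with library totals, all past the threshold. Mef2c alone had 6.53, 4.13 and 6.37 CPM at the same site, below all inputs (-1.24 ± 0.44, adjusted p = 0.00892).

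At Tbx20, Gata4 was above input at site 1, and Mef2c with the others was called at site 2 although its samples lay inside the input range. Site 1 (chromosome 9, 24575713 to 24576084) had 110, 108, 117 and 26.9 CPM for Gata4 alone and 76.7, 62.3, 63.7, 68.2 and 86.1 CPM with the others, against inputs from 15.98 to 54.4 CPM (median 31.3). Only the library labelled Gata4 alone number 4 fell inside the input range. The log2 fold changes were 1.65 ± 0.40 alone (adjusted p = 0.00237) and 1.16 ± 0.27 with the others (adjusted p = 0.000415). Without number 4 the value alone was 2.14, and without input sample 2 it was 0.91 and no longer called (adjusted p = 0.0797), or 0.77 with the others (adjusted p = 0.0412). Tbx5 was not called there (-0.08 alone, adjusted p = 0.867, and -0.16 with the others, adjusted p = 0.676). At site 2 (24584257 to 24584497) Mef2c with the others had 36.5, 38.6, 34.3 and 40.4 CPM, within the input range of 10.3 to 47.9 CPM (median 31.4). Its log2 fold change of 0.88 ± 0.33 (adjusted p = 0.0166) was 0.10 with library totals (adjusted p = 0.775) and 0.77 with DESeq2 (adjusted p = 0.0573). It also lost the call without input sample 1, 2 or 6 or Mef2c sample 3 (adjusted p from 0.0519 to 0.43).

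At Gata6, Gata4 and Tbx5 were above input at several sites, whereas the log2 fold changes of Mef2c lay between -1.56 and 0.51. Gata4 was strongest at site 5 (chromosome 18, 11052848 to 11053162), with 145, 218, 123 and 26.9 CPM alone and 131, 109, 131, 119 and 122 CPM with the others. Inputs there were 7.82 to 55.9 CPM (median 17.6), and all Gata4 samples lay above them except the library labelled Gata4 alone number 4. The log2 fold changes of 2.40 ± 0.46 alone (adjusted p = 0.000409) and 2.14 ± 0.28 with the others (adjusted p = 1.47e-08) exceeded those of 99.6% and 99.5% of tested regions. Without that library the value alone was 2.92, and without input sample 2 it was 1.55 (adjusted p = 0.0249). With the others, Gata4 was called higher at 6 of 8 sites, the other 5 being site 1 (1.00 ± 0.32), site 2 (1.12 ± 0.30), site 3 (1.21 ± 0.38), site 4 (0.90 ± 0.29) and site 7 (1.25 ± 0.29), with adjusted p from 0.000494 to 0.0079. Library totals ended the calls at sites 1 and 4 (adjusted p = 0.0535 and 0.0613), and leaving out input sample 1 or 2 ended each of these 5 but not the call at site 5 (highest adjusted p from 0.0617 at site 7 to 0.141 at site 4).

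Tbx5 was strongest at Gata6 site 6 (11100819 to 11101113), with 144, 191 and 193 CPM alone and 89.6, 94.3, 119 and 88.0 CPM with the others. All were above the inputs of 24.6 to 51.3 CPM (median 47.4), with log2 fold changes of 2.67 ± 0.24 (adjusted p = 1.27e-17) and 1.82 ± 0.26 (adjusted p = 6.3e-08). Without input sample 2 the value alone was 1.48, still called, but against inputs of single-factor cells the call ended, as given above. Gata4 at this site was 17.5 ± 4.96 CPM with the others, below input (-1.02 ± 0.32, adjusted p = 0.00562). At site 7 (11102684 to 11102938), the next site along, both factors were above input. Tbx5 had log2 fold changes of 2.57 ± 0.28 alone (adjusted p = 1.55e-13) and 1.34 ± 0.33 with the others (adjusted p = 0.000494), and Gata4 of 1.46 ± 0.38 (adjusted p = 0.00415) and 1.25 ± 0.29 (adjusted p = 0.000494). Without Gata4 alone number 4, the value for Gata4 alone was 1.94 (adjusted p = 6.36e-08). Against inputs of single-factor cells only, neither factor alone was called there (Tbx5 0.97, adjusted p = 0.121, and Gata4 0.77, adjusted p = 0.377). Tbx5 was called at site 1 too (1.502 ± 0.34, adjusted p = 0.000111, and 1.80 ± 0.31, adjusted p = 3.36e-06).

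The main comparison asked whether each factor's occupancy changed when the other 2 were delivered with it. Gata4 was higher with the others at 3 of 19 sites tested, against 16.5% of all regions, and lower at 0, against 15.2% (31.7% called in all). Unadjusted, 5 sites were higher and 0 lower at p under 0.05, and DESeq2 called 4 higher and 0 lower. Both sites named by the rule were at Nkx2-5. At Nkx2-5 site 2, Gata4 rose from 8.28, 8.46, 22.0 and 17.96 CPM alone to 59.2, 47.9, 60.2, 56.8 and 49.9 CPM. The groups did not overlap, and the log2 fold change was 1.99 ± 0.36 (adjusted p = 0.000499), above 97.3% of tested regions. Like Gata6 site 1, this site passed the filter on low counts only through the samples with the others. At site 5, Gata4 rose from 22.8, 22.0, 22.0 and 40.4 CPM to 94.2, 91.0, 69.0, 65.3 and 73.3 CPM, again without overlap, by 1.62 ± 0.32 (adjusted p = 0.000867). Both calls were kept with each sample left out in turn, and when only libraries 1, 3 and 6 or only libraries 2, 4 and 5 with the others were used (2.19 and 1.91 at site 2, 1.76 and 1.59 at site 5). Without Gata4 alone number 4 the log2 fold changes were 2.12 at site 2 (adjusted p = 9.88e-06) and 1.85 at site 5 (adjusted p = 6.93e-06).

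The third Gata4 call was less stable. At Gata6 site 1 (10976467 to 10976683) Gata4 had 4.14, 6.77, 13.2 and 49.4 CPM alone and 32.1, 39.5, 30.1, 93.7 and 42.5 CPM with the others, so the groups overlapped through the library labelled Gata4 alone number 4. The log2 fold change was 1.61 ± 0.53 (adjusted p = 0.0226), and the call ended without Gata4 alone sample 1, 2 or 3 or with only libraries 1, 3 and 6 (1.14, adjusted p = 0.226). Without Gata4 alone number 4 it was 2.47 (adjusted p = 3.18e-05), and 7 sites were called in place of 3. Those added were Nkx2-5 site 4 (2.62, adjusted p = 0.000382), Gata6 site 2 (1.02, adjusted p = 0.00765) and Hand2 site 2 (0.70, adjusted p = 0.0429), all higher, and Tbx20 site 1, lower (-0.62, adjusted p = 0.0301). At the strongest Gata4 sites the change was small, with 0.45 ± 0.31 at Hand2 site 3 (adjusted p = 0.288), -0.41 ± 0.32 at Tbx20 site 1 (adjusted p = 0.343) and -0.15 ± 0.36 at Gata6 site 5 (adjusted p = 0.798).

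Mef2c changed at the largest number of sites. It was higher with the others at 8 of 19 sites tested, against 31.3% of all regions, and lower at 1, against 28.8% (60.1% called in all). At these 8 sites the samples alone had 2.12 to 11.4 CPM. The sites passed the filter on low counts only through the samples with the others, so their direction was partly set by the filter. The median log2 fold change was 0.99 over the tested sites and 0.15 over all regions. Library totals moved the median of all regions to 0.47 and the count to 12 higher and 0 lower. Sites called higher were found at each locus, with 4 at Nkx2-5, 2 at Gata6, 1 at Hand2 and 1 at Tbx20. The site named by the rule was Nkx2-5 site 3, where Mef2c rose from 6.53, 4.13 and 6.37 CPM alone to 86.1, 79.7, 98.3 and 99.3 CPM. The groups were far apart, and the log2 fold change of 3.72 ± 0.37 (adjusted p = 1.88e-08) was above 98.6% of tested regions and stayed between 3.44 and 3.86 with each sample left out. It was 3.49 with only library 3 and 3.86 with libraries 2, 4 and 5.

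The other Mef2c increases were at sites of low mean signal, outside the rule, and are named here after their values were seen. At Tbx20 site 2, Mef2c went from 2.18, 3.10 and 4.25 CPM, which are 2, 3 and 4 reads, to 36.5, 38.6, 34.3 and 40.4 CPM (3.25 ± 0.44, adjusted p = 1.03e-06). At Hand2 site 3, the strongest Gata4 site of that locus, it went from 2.18, 3.10 and 2.12 CPM to 20.9, 12.6, 23.3 and 21.0 CPM (2.66 ± 0.51, adjusted p = 8.38e-05). Neither pair of groups overlapped. Mef2c with the others was nonetheless inside the input range at Tbx20 site 2, as given above. At Hand2 site 3 it had 19.4 ± 4.70 CPM against 35.0 ± 17.6 in inputs, which was not called with TMM (-0.36, adjusted p = 0.334) and was called lower with library totals (-1.15, adjusted p = 0.00406) and with every library its own sample (-1.25, adjusted p = 0.000928). The remaining increases were Gata6 site 8 (2.34), Nkx2-5 site 1 (2.05), site 4 (1.89) and site 5 (1.59), and Gata6 site 2 (1.57), with adjusted p from 0.000551 to 0.00475, and none of these was called above input with TMM and all inputs. Gata6 site 8 was so with inputs of the same cells only (1.14, adjusted p = 0.0446), and Gata6 site 2 in 1 fit of all groups (0.94, adjusted p = 0.0302). At Nkx2-5 site 5, Mef2c with the others was called below input (-0.85, adjusted p = 0.0229), at 18.7 ± 4.49 CPM against 54.8 ± 22.1 in inputs. With inputs of the same cells only it was not called (-0.48, adjusted p = 0.248). Mef2c alone was called below input at Nkx2-5 sites 1, 4 and 5 and Gata6 site 8. The increase at Nkx2-5 site 5 was not called without Mef2c alone sample 1 (adjusted p = 0.0664). With only library 3, an arm of 1 sample that is assumed to vary like the samples alone, the log2 fold changes at Hand2 site 3, Nkx2-5 site 5 and Gata6 site 2 were 2.00, 1.21 and 1.15 and were not called (adjusted p = 0.0649, 0.173 and 0.12). At Hand2 site 4 Mef2c was lower with the others, at 57.4, 25.2, 25.0 and 16.8 CPM against 74.0, 45.4 and 39.3 alone, which overlap (-1.21 ± 0.36, adjusted p = 0.00523). That call ended without Mef2c with the others sample 5 (adjusted p = 0.0502) and with library totals (-0.87, adjusted p = 0.0507). Hand2 site 6, where Mef2c alone was highest over input, was not called (-0.37 ± 0.26, adjusted p = 0.234).

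**Figure D3:**
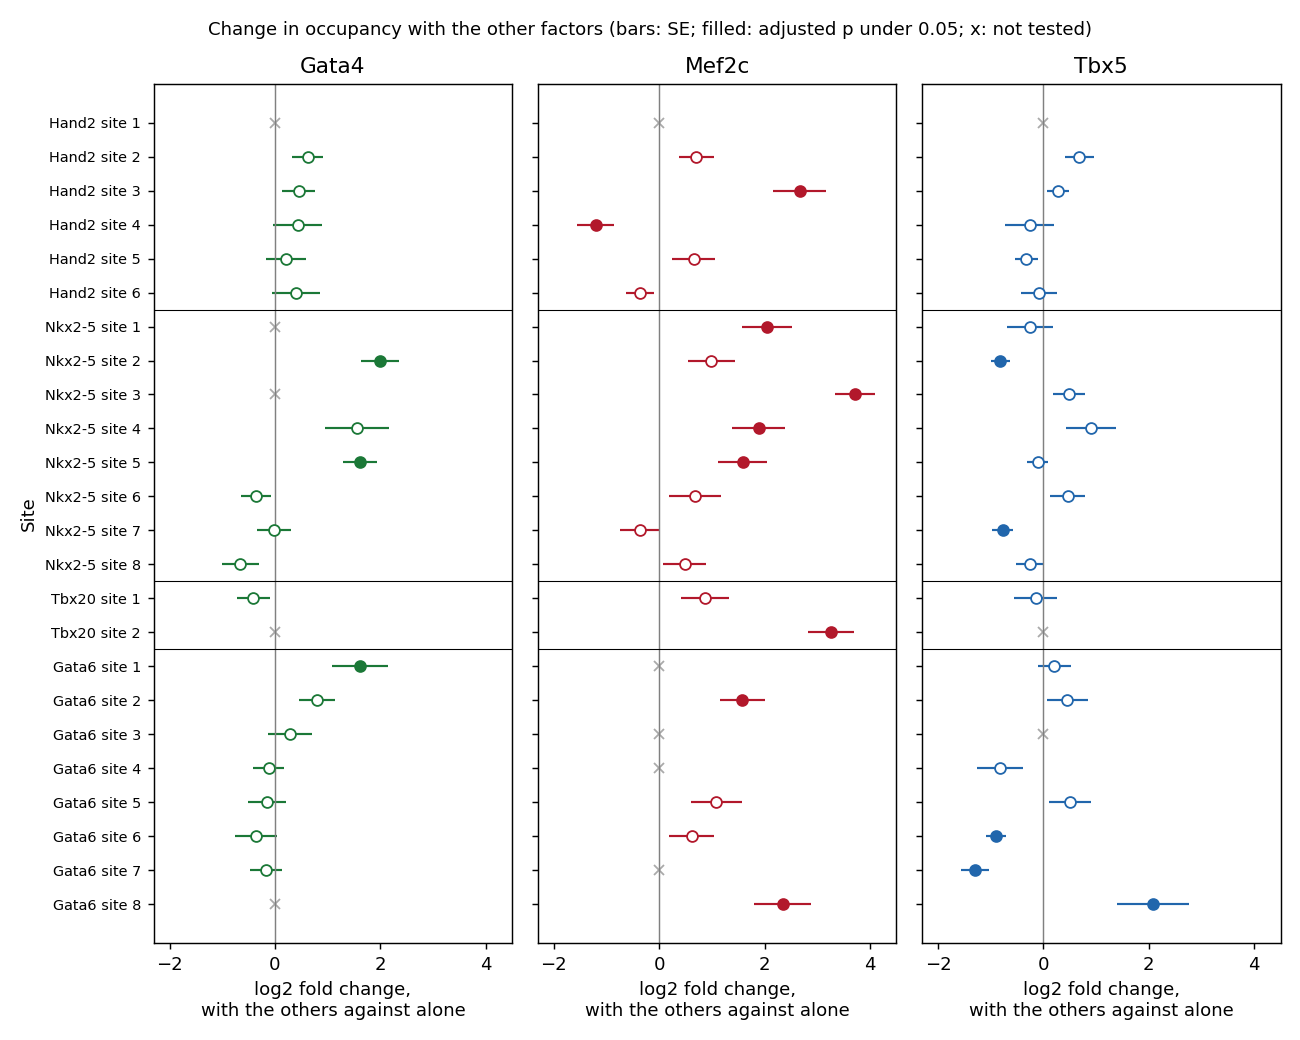
Log2 fold change from alone to with the others (horizontal axis; bars, SE) at the 24 sites (vertical axis) for Gata4, Mef2c and Tbx5, filled where the adjusted p was under 0.05 and crosses where a site was not tested. Filled points lie to the right for Gata4 (3 sites) and mostly so for Mef2c (8 of 9), and to the left for Tbx5 at 4 of 5.

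Tbx5 was lower with the others at 4 of 21 sites tested, against 14.9% of all regions, and higher at 1, against 18.8% (33.7% called in all). The median log2 fold change was -0.11 over the tested sites and 0.01 over all regions, and library totals gave 4 lower and 2 higher. The decreases were at Gata6 sites 6 and 7 and Nkx2-5 sites 2 and 7. At Gata6 site 7, Tbx5 fell from 101, 128 and 94.2 CPM alone to 27.6, 35.0, 64.8 and 50.3 CPM (-1.30 ± 0.27, adjusted p = 0.00214). At Gata6 site 6 it fell from 144, 191 and 193 CPM to 89.6, 94.3, 119 and 88.0 CPM (-0.90 ± 0.20, adjusted p = 0.00318). In both, each sample alone exceeded each sample with the others. At Nkx2-5 site 2 the values given above correspond to -0.82 ± 0.19 (adjusted p = 0.00392), and at Nkx2-5 site 7 Tbx5 fell from 140, 152 and 151 CPM to 87.9, 103, 98.2 and 70.5 CPM (-0.77 ± 0.20, adjusted p = 0.0086), neither with overlap. These 4 calls were kept with any sample left out. In a fit of all groups with a shared spread, all but Gata6 site 7 lost the call (adjusted p from 0.0713 to 0.136), with log2 fold changes of -0.89 at Gata6 site 6, -0.82 at Nkx2-5 site 2 and -0.77 at Nkx2-5 site 7. With only library 3, again an arm of 1 sample, Nkx2-5 site 7 had -0.51 and was not called (adjusted p = 0.225).

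The increase in Tbx5 was at Gata6 site 8 (11144915 to 11145146), from 8.24, 0 and 14.1 CPM to 25.9, 25.4, 74.2 and 17.5 CPM. The groups did not overlap but sample 4 was far above the others, and the log2 fold change was 2.08 ± 0.68 (adjusted p = 0.0277). The site passed the filter on low counts only through the samples with the others. Without sample 3 or sample 4 of these it was not tested. The call ended without Tbx5 alone sample 1 or 2 (highest adjusted p = 0.105). With only library 3, 1 sample, the log2 fold change was 1.67. With the others Tbx5 was not called against input there (0.36, adjusted p = 0.385). Hand2 site 5, where Tbx5 was highest over input at that locus, was not called (-0.32 ± 0.22, adjusted p = 0.269), nor was Nkx2-5 site 5 (-0.11 ± 0.20, adjusted p = 0.712).

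**Figure D4:**
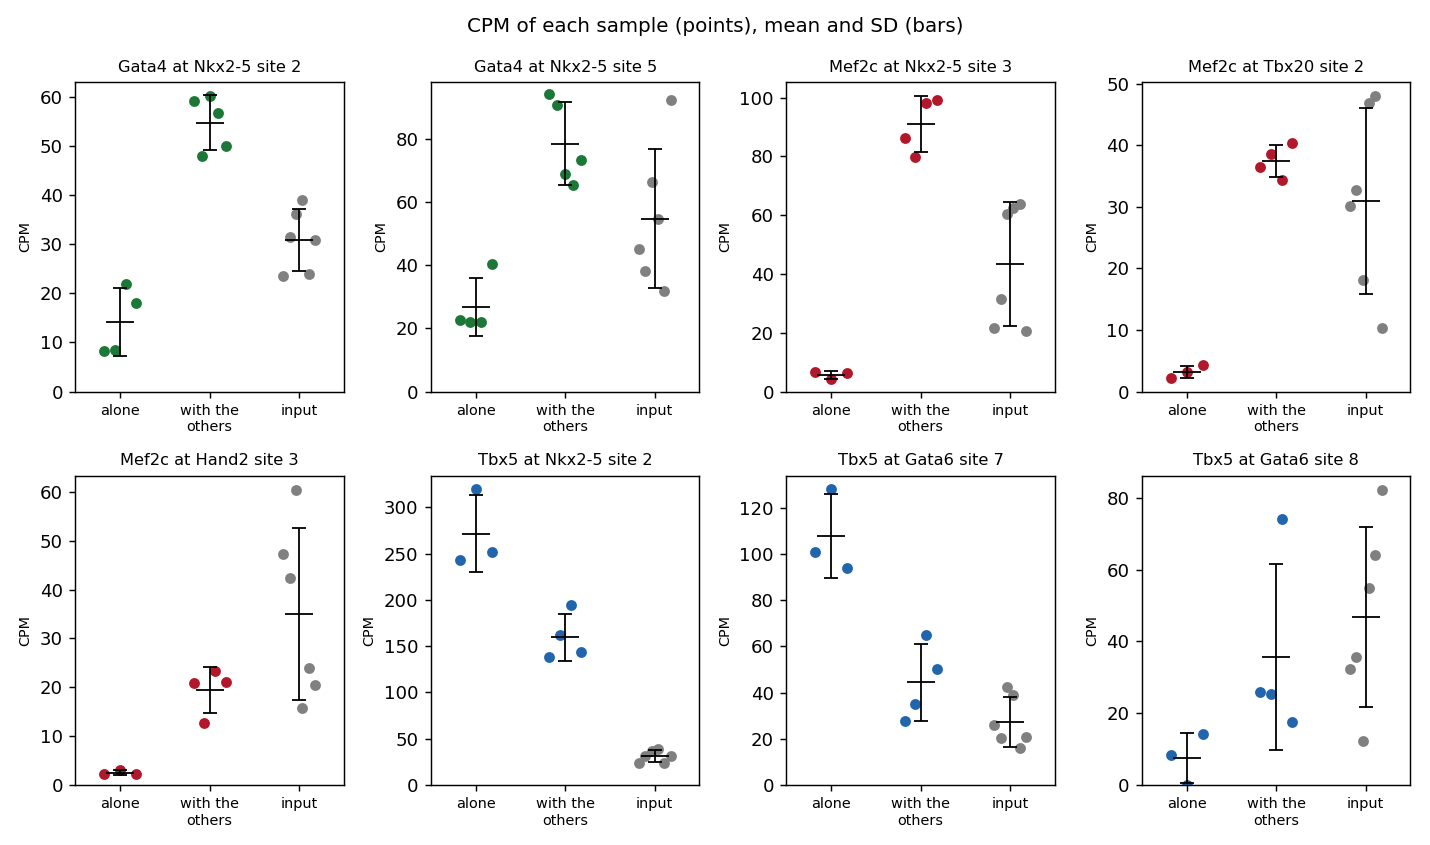
CPM (vertical axis, from 0) of each sample (points) with mean and SD (bars) for 8 pairs of factor and site, alone, with the others and in the 6 inputs. Gata4 at Nkx2-5 sites 2 and 5 and Mef2c at Nkx2-5 site 3 lie above their samples alone without overlap, and Tbx5 at Nkx2-5 site 2 and Gata6 site 7 lies below.

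At Nkx2-5 site 2, Gata4 and Tbx5 thus moved in opposite directions, and whether the change itself differed between factors was tested in a single fit of the 6 ChIP groups, added after the values were seen. The difference between the changes of Gata4 and Tbx5 there was 2.77 ± 0.48 (log2, adjusted p = 0.000524). It was past the threshold with any of 23 samples left out, between 2.59 and 3.15. Gata4 and Tbx5 differed at 2 sites (3.59% of all regions were called), the other being Nkx2-5 site 5 (1.70 ± 0.45, adjusted p = 0.022, kept in 15 of 23). Mef2c and Tbx5 differed at 4 (13.3% of all regions), led by Nkx2-5 site 3 (2.88 ± 0.63, adjusted p = 0.00203, kept in 23 of 23). The change of Mef2c was also above that of Tbx5 at Gata6 site 7 (2.09 ± 0.66, adjusted p = 0.0269), where Mef2c was 3.88 ± 2.21 CPM alone and 9.85 ± 2.23 with the others, below the inputs' 27.4 ± 10.8. Gata4 and Mef2c differed at 4 (13.5% of all regions), led by Tbx20 site 2, where the change of Gata4 minus that of Mef2c was -2.88 ± 0.75 (adjusted p = 0.00798), and it was lost without Gata4 alone number 4, at which Gata4 had 62.8 CPM against 4.14 to 10.996 CPM in the other samples alone.

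Levels summed over the sites of a locus are given as a description, without a test. At Nkx2-5, Tbx5 had 686 ± 30.1 CPM alone and 545 ± 71.0 with the others, Gata4 204 ± 35.4 and 293 ± 29.6, and Mef2c 62.2 ± 8.24 and 220 ± 19.8, against 318 ± 63.0 in inputs. At Gata6, Gata4 had 354 ± 62.2 CPM alone and 404 ± 82.6 with the others and Tbx5 410 ± 67.0 and 313 ± 46.6, while Mef2c had 41.4 ± 4.85 and 120 ± 33.2, below the inputs at 234 ± 17.1. At Hand2, Gata4 had 215 ± 23.4 and 301 ± 19.9, Mef2c 164 ± 35.4 and 188 ± 22.4, and Tbx5 271 ± 16.9 and 299 ± 27.0, against 208 ± 50.3 in inputs. At Tbx20, Gata4 had 112 ± 15.8 and 88.5 ± 7.44, Mef2c 9.55 ± 1.86 and 50.4 ± 5.90, and Tbx5 24.9 ± 13.9 and 34.4 ± 5.11, against 63.8 ± 17.1 in inputs. The sums alone and with the others did not overlap for any factor at Nkx2-5, for Gata4 at Hand2 or for Mef2c at Gata6 and Tbx20. They overlapped for the other pairs of factor and locus. The share of other windows without overlap was not computed. With library totals, the median log2 fold change of Mef2c from alone to with the others was 0.47 over all regions.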

How the data were processed

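The authors deposited a table of read counts per region for 33 ChIP-seq and input libraries. Per the submitters' processing notes, reads were checked with FastQC, aligned with Bowtie2 2.2.4 to mm9 and counted with featureCounts. How the regions were chosen is not given in the sources used here. All deposited sample columns were matched to labels.

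Libraries of a group whose counts agree within sampling noise (chi-square p above 0.05) were summed, giving 29 samples. These were Gata4 with the others 1 and 6, inputs of cells with all factors 1 and 3, and inputs 2, 4 and 5. Their differences could not be told apart from sampling noise (lowest p 0.0785), and each set counts as 1 sample. Counts were tested in R 4.3.3 with edgeR 4.0.16 (quasi-likelihood, TMM, filterByExpr with minimum count 10 and minimum total 15, robust) and limma 3.58.1, over all regions, with Benjamini-Hochberg adjustment. DESeq2 1.42.0 was an alternative. On simulated counts in which 200 regions changed, up or down at random, 2.59 to 8.74% of calls were false across the comparisons. The tests recovered 7 to 34% of 2-fold changes and 61 to 89% of 4-fold changes, so a site not called may still have changed. In the data 31.7 to 73.7% of regions were called, and TMM factors differed between ChIP and input. The simulated rates therefore need not hold for these tests. CPM are counts over each sample's total in regions, and counting error is largest for sites with few reads.

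The windows, lists and tests were chosen with earlier results of these data known. Sites named in full were, per locus and factor, those with the highest called log2 fold change over input, and, per comparison with alone and direction, up to 5 called sites with mean log2 CPM above the median of tested regions and no overlap between groups. Other settings tried were library totals, no filter, each library as its own sample, all groups in 1 fit, inputs of the same or of single-factor cells only, subsets of libraries, a replicate block and each sample left out. The tests of differences between factors were added after the values were seen. No expression was measured in these samples, so cell identity was not checked.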

Additional observations from a re-analysis of the deposited data

Results flagged for a closer look

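In 10 of 96 groups of CPM values, 1 sample lay far from the others, where chance alone flags about 1 in 20. The library labelled Gata4 alone number 4 accounted for 5 of these. It had 26.9 CPM at Nkx2-5 site 4, 40.4 at Nkx2-5 site 5, 62.8 at Tbx20 site 2 and 35.9 at Gata6 site 8, each above the other samples alone, and 26.9 at Tbx20 site 1, below their 108 to 117. The remaining 5 were Gata4 with the others number 4 at Gata6 site 1 (93.7 CPM), Mef2c with the others number 5 at Nkx2-5 site 2 (11.8 CPM, others 20.9 to 22.7), Mef2c with the others number 3 at Nkx2-5 site 4 (22.7 CPM, others 13.1 to 14.5), Tbx5 with the others number 5 at Hand2 site 2 (81.0 CPM, others 63.6 to 65.8) and Tbx5 with the others number 4 at Gata6 site 8 (74.2 CPM).

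At 10 pairs of site and factors, the gap in occupancy between cells with all factors and single-factor cells was unequal for the 2 factors compared. This was by edgeR's quasi-likelihood test with Benjamini-Hochberg adjustment. Of 24 sites tested per pair, 4 were called for Gata4 and Mef2c, 2 for Gata4 and Tbx5 and 4 for Mef2c and Tbx5. Over all regions, 13.5%, 3.59% and 13.3% were called. The added factors cannot be told apart here from a difference between cell populations. Gata4 minus Mef2c was -1.95 at Hand2 site 3 (adjusted p = 0.0337, kept with 15 of 23 samples left out), 1.96 at Hand2 site 4 (0.0171, or 1.39 with adjusted p = 0.113 by library totals), -2.48 at Nkx2-5 site 3 (0.017) and -2.88 at Tbx20 site 2 (0.00798), the last pair lost without Gata4 alone number 4. Gata4 minus Tbx5 was 2.77 at Nkx2-5 site 2 (0.000524) and 1.70 at Nkx2-5 site 5 (0.022). Mef2c minus Tbx5 was 2.06 at Hand2 site 3 (0.0318, kept in 14 of 23), 1.49 at Nkx2-5 site 2 (0.0482, kept in 9 of 23), 2.88 at Nkx2-5 site 3 (0.00203) and 2.09 at Gata6 site 7 (0.0269, kept in 17 of 23).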

How the results depend on the processing

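Of 63 counts of called sites under other settings, 54 were within 1.5 times the main count and 9 were not. No value of a site named by the rule, or of a called difference between factors, changed direction. Of these values, 565 stayed past the threshold and 81 did not. The Tbx5 count of 5 between contexts was 2 in 1 fit of all groups and 3 with only library 3. With only inputs of single-factor cells, Gata4 alone had 0 calls in place of 10 by edgeR (9 sites tested, 3 higher and 1 lower at unadjusted p under 0.05, 0 by DESeq2), Mef2c alone 10 in place of 16 and Tbx5 alone 4 in place of 14. Mef2c alone had 8 in 1 fit of all groups. Gata4 with the others against input had 8 in place of 18 with every library its own sample, and Mef2c with the others 11 in place of 7 with library totals. With each sample left out, the counts between contexts ran from 2 to 7 for Gata4, 9 to 12 for Mef2c and 4 to 5 for Tbx5. Against input they ran from 4 to 14, 7 to 16 and 9 to 14 alone, and from 7 to 19, 6 to 9 and 12 to 16 with the others. Against input, the lowest counts included the fits without input sample 1 or 2, where fewer sites were tested in most comparisons. Deviations of libraries of a factor with the others and of same-numbered libraries of that factor alone or of input had r from -0.33 to 0.24. With few reads per region, such r cannot show that the numbers mark no pairing. Reads on chromosome Y did follow the numbers with the others. For Gata4 they were 138 to 209 CPM in libraries 1, 3 and 6 and 1.06 to 25.6 CPM in libraries 2, 4 and 5. A replicate block gave 3, 8 and 5 calls between contexts and 5 in place of 18 for Gata4 with the others against input. Higher calls that it ended there included Tbx20 site 1 (0.43, adjusted p = 0.159), Hand2 site 2, Nkx2-5 sites 2, 5 and 6, and Gata6 sites 2 and 4. It added a lower call at Nkx2-5 site 7 (-0.97, adjusted p = 0.000794). Same-numbered samples of different factors were not compared, and the fit of differences between factors treated them as independent. That independence was not tested. For the factors alone against input, no paired analysis was possible because single-factor inputs share fewer than 2 numbers with them. Low counts limit Mef2c alone most, with 2 to 4 reads at several sites.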
